A study of Mus musculus with 8 samples.

Results

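The 8 genes Pck1, G6pc, Fbp1, Pygl, Slc2a2, Pfkl, Pklr and Gys2, which carry glucose out of the hepatocyte or commit it to use and storage, were followed in mouse liver. They were taken by symbol from a table of 19267 genes, all 8 were present, and all 8 passed the filter on low counts. RNA of whole liver from male C57BL/6 mice of 9 weeks was sequenced in 8 libraries, 2 in each of 4 groups. Elf4-/- mice were Elf4loxp/loxp animals in which Cre under the villin promoter removed the transcription factor gene Elf4 from intestinal epithelium, so their liver cells were not the target of the deletion, and WT mice carried Cre as well. Each genotype was pair-fed a Lieber-DeCarli liquid diet for 21 days. The EtOH diet held 5% (w/v) alcohol, and in the Control diet maltose dextrin replaced its calories. Where the 2 values of a group are given, replicate 1 comes before replicate 2. The labels do not say whether the 2 libraries of a group are 2 animals, and p-values measure only the spread between these libraries. In RNA of whole tissue, fewer cells of a type and less RNA per cell cannot be told apart.

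In the fed state liver takes up glucose, phosphorylates it, burns it through glycolysis and stores it as glycogen, and between meals it breaks glycogen down and makes new glucose from lactate, amino acids and glycerol. Most reactions between glucose and pyruvate run both ways on shared enzymes. Direction is set at a few steps where a pair of opposing enzymes is used, and most of the genes described here encode enzymes of those steps. Glucagon and glucocorticoids raise the output enzymes, and insulin and glucose raise the enzymes of use, in part through transcription. Output genes are known to be stronger near the portal vein and genes of glucose use near the central vein.

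The promoters of Pck1 and Pklr are shown because these 2 enzymes oppose each other between pyruvate and phosphoenolpyruvate, and because each held a short motif of hormone or sugar response. The 250 bases before the RefSeq start are printed 5′ to 3′ from the plus strand of GRCm38.p6, chr2:173152823-173153072 for Pck1 and chr3:89136373-89136622 for Pklr. Capitals mark a variant of the cyclic AMP response element in Pck1, 93 to 86 bases before the start, and the carbohydrate response element in Pklr, 170 to 154 bases before the start.
Pck1: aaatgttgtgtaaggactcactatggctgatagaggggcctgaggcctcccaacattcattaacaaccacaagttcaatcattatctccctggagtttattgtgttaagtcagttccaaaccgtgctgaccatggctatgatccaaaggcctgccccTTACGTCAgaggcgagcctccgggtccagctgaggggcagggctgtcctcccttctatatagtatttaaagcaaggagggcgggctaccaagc
Pklr: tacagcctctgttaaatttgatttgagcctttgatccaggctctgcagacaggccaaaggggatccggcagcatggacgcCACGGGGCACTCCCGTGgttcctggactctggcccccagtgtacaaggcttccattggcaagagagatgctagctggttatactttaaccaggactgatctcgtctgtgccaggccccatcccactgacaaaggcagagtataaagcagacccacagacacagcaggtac
The Pck1 motif, TTACGTCA on either strand, was found in 0.499% of 32851 RefSeq mouse promoters (windows from 250 bases before to 50 after the start), and the carbohydrate response element, a pair of E-box-like sites set 5 bases apart, in 0.0457%. RefSeq promoters were found for 7 of the 8 genes, 8 promoters in all because Pklr has 2. The Pklr promoter shown is the 1 of these 2 that held the carbohydrate response element. Its window lies after the annotated start of the gene, 89136142. None of the 8 held the plain cyclic AMP element TGACGTCA (1.79% of all promoters), the E-box CACGTG (7.15%), the forkhead motif GTAAACA (3.65%), the glucocorticoid response element (0.00913%) or the HNF1 motif (0.00913%). A match describes these letters only. All 8 are protein-coding genes of GRCm38. On the plus strand lie Pck1 on chromosome 2 at 173153048 to 173159273, G6pc on chromosome 11 at 101367561 to 101377903, Pklr on chromosome 3 at 89136142 to 89146784 and Slc2a2 on chromosome 3 at 28697903 to 28731359. On the minus strand lie Fbp1 on chromosome 13 at 62864753 to 62888282, Pygl on chromosome 12 at 70190811 to 70231488, Pfkl on chromosome 10 at 77986947 to 78010083 and Gys2 on chromosome 6 at 142422613 to 142473109.

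Counts were scaled to CPM, counts relative to the library size, with TMM factors, which correct each library for its composition. Library totals ran from 6171051 to 9157362 counts, and the genes of the mitochondrial genome took 10.8% to 33.7% of a library. This share was lower under EtOH in WT, at 33.7% and 23.4% in Control and 12.5% and 10.8% in EtOH libraries, while in Elf4-/- it was 18.7% and 18.5% in Control and 22.1% and 18.3% in EtOH libraries, which overlapped. Its part in the diet differences given here was not tested. A gene was called changed when its adjusted p was under 0.05 in edgeR's quasi-likelihood test over 13993 genes, and every fold change is given on the log2 scale with its standard error (SE). Elf4 itself had 6 to 36 counts per library and its counts in Elf4-/- liver overlapped those in WT liver, which checks nothing about a deletion made in the intestine.

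The diet changed genes on both sides of the balance. In WT liver 4 of the 8 genes were called, with Fbp1 higher and Pck1, Slc2a2 and Gys2 lower under EtOH, against 21.6% of all genes tested (10.8% higher and 10.8% lower). In Elf4-/- liver 2 of the 8 were called, Gys2 and Pklr, both lower, against 2.89% of all genes (1.71% higher and 1.18% lower). Averaged over both genotypes, 5 of the 8 were called, Fbp1 higher and Pck1, Slc2a2, Gys2 and Pklr lower, against 28.0% of all genes (14.1% higher and 13.8% lower). The median log2 change of the 8 genes averaged over genotypes was -0.50, beside 0.01 for all genes tested. The 4 EtOH libraries lay wholly above the 4 Control libraries for Fbp1 and wholly below them for Slc2a2 and Gys2, 3 of the 8 genes. Of all genes tested, 13.9% lay wholly above, 14.0% wholly below and 27.8% in either direction.

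**Figure D1:**
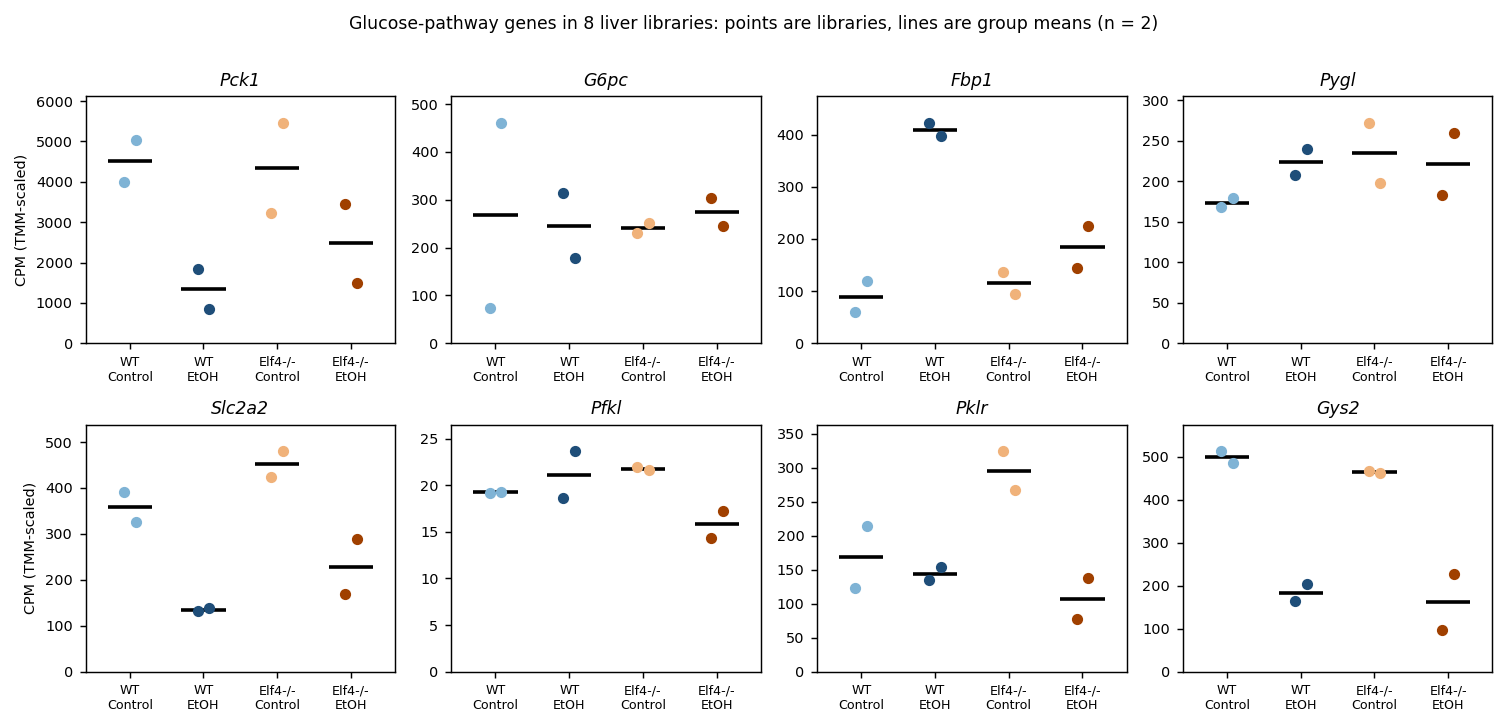
Expression of the 8 genes in each library. The vertical axes give CPM from 0, points are libraries, lines are means of the 2 libraries of a group, and colours mark the 4 groups. Fbp1 stood highest in WT EtOH at 423 and 397 CPM, Gys2 and Slc2a2 were lower in every EtOH library than in any Control library, and the WT Control libraries stood far apart for G6pc.

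Pck1 encodes the cytosolic phosphoenolpyruvate carboxykinase, which turns oxaloacetate into phosphoenolpyruvate at the entry to glucose synthesis. It stood at 3995 and 5039 CPM in Control and 1852 and 860 CPM in EtOH libraries of WT, and 3216 and 5460 CPM in Control and 3449 and 1502 CPM in EtOH libraries of Elf4-/-. The WT groups did not overlap, and the Elf4-/- groups did, because Elf4-/- EtOH replicate 1 lay above Elf4-/- Control replicate 1. For groups of 2 libraries the share of all genes without overlap was not computed, here or for the other genes. Pck1 fell by 1.74 ± 0.49 (SE) on the log2 scale in WT, 3.33-fold (adjusted p = 0.0335). In Elf4-/- the difference was -0.81 ± 0.48 (adjusted p = 0.361), with a 95% interval from -1.88 to 0.26. The call in WT was lost without either WT Control library or without WT EtOH replicate 2, where the change was -1.29 (adjusted p = 0.205). The call averaged over genotypes (-1.27, adjusted p = 0.0222) was lost without WT Control replicate 2, WT EtOH replicate 2 or Elf4-/- Control replicate 2 (highest adjusted p = 0.0876).

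Fbp1 encodes fructose bisphosphatase, the enzyme that opposes phosphofructokinase. Its levels were 59.9 and 120 CPM in Control and 423 and 397 CPM in EtOH libraries of WT, and 137 and 95.5 CPM in Control and 143 and 225 CPM in EtOH libraries of Elf4-/-. Both EtOH groups lay above both Control groups, and WT EtOH lay above all other libraries. Fbp1 rose by 2.19 ± 0.36 in WT, 4.57-fold (adjusted p = 0.0041), and this call was kept in all 8 fits that each left out 1 library. The difference in Elf4-/- was 0.67 ± 0.35 (adjusted p = 0.296). The difference between these diet effects was -1.52 ± 0.49, with an unadjusted p of 0.0109 and an adjusted p of 0.347, so that it did not pass.

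G6pc encodes the catalytic subunit of glucose-6-phosphatase, the last enzyme of glucose output. It showed no call in any comparison, and its levels in WT Control were far apart, at 74.6 and 461 CPM. The other groups stood between them, at 314 and 177 CPM in WT EtOH, 230 and 250.5 CPM in the Control libraries of Elf4-/- and 303 and 244 CPM in their EtOH libraries. The WT Control replicates differed 6.18-fold, a gap reached by 0.607% of genes in that group. The fitted diet difference was -0.12 ± 0.62 in WT, with a 95% interval from -1.497 to 1.25, and 0.19 ± 0.62 in Elf4-/-, and the WT value turned to 0.27 with scaling by library totals. Without WT Control replicate 2 the diet difference of G6pc was 1.72 in WT (adjusted p = 0.0277) and 0.95 averaged over genotypes (adjusted p = 0.0240), both past the threshold.

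Pygl encodes the liver form of glycogen phosphorylase, which releases glucose units from glycogen. Its levels were 168 and 179 CPM in Control and 208 and 240 CPM in EtOH libraries of WT, and 272 and 198 CPM in Control and 183 and 260 CPM in EtOH libraries of Elf4-/-. The WT groups did not overlap and the Elf4-/- groups did, with 2 libraries in each and no share over all genes computed. The differences, 0.37 ± 0.25 in WT and -0.09 ± 0.25 in Elf4-/-, did not pass the test, and the 95% interval over both genotypes ran from -0.25 to 0.53.

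Slc2a2 encodes GLUT2, the carrier through which glucose enters and leaves the hepatocyte. It stood at 391 and 327 CPM in Control and 131 and 138 CPM in EtOH libraries of WT, and 424 and 480 CPM in Control and 169 and 288 CPM in EtOH libraries of Elf4-/-. Slc2a2 fell by 1.41 ± 0.28 in WT, 2.66-fold (adjusted p = 0.0081). In Elf4-/- the difference was -0.98 ± 0.27 (adjusted p = 0.0814), which edgeR did not call and DESeq2 did (adjusted p = 0.0125), as it did 6.56% of the genes to which it gave an adjusted p. Averaged over genotypes it fell by 1.20 (adjusted p = 0.0023), a call kept in all 8 fits without 1 library. The call in WT was lost without either WT EtOH library (highest adjusted p = 0.0695), and the difference in Elf4-/- passed without Elf4-/- EtOH replicate 2 (-1.44, adjusted p = 0.0053).

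Gys2 encodes the liver glycogen synthase, which stores glucose. It stood at 513 and 485 CPM in WT Control and 467 and 462 CPM in Elf4-/- Control. Under EtOH it stood at 165 and 203 CPM in WT and at 96.1 and 226 CPM in Elf4-/-. Gys2 fell by 1.44 ± 0.35 in WT (adjusted p = 0.0184) and by 1.53 ± 0.35 in Elf4-/-, where its adjusted p of 0.04997 lay just inside the threshold. Averaged over genotypes it fell by 1.48, 2.79-fold (adjusted p = 0.0026), and this call was kept without any 1 library. The calls within 1 genotype were less firm, since the call in WT was lost without any 1 of the 4 WT libraries (highest adjusted p = 0.130) and with scaling by library totals (adjusted p = 0.0621). The call in Elf4-/- was kept in 1 of 8 fits without 1 library, the fit without Elf4-/- EtOH replicate 2, and reached an adjusted p of 0.251 without Elf4-/- Control replicate 2.

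Pklr, the liver and red cell pyruvate kinase that makes pyruvate from phosphoenolpyruvate, stood at 122 and 215 CPM in Control and 134 and 154 CPM in EtOH libraries of WT, and 325 and 267 CPM in Control and 77.3 and 138 CPM in EtOH libraries of Elf4-/-. Both Elf4-/- Control libraries lay above all others, and the WT groups overlapped. Pklr fell by 1.46 ± 0.33 in Elf4-/-, 2.75-fold (adjusted p = 0.0496), and differed by -0.23 ± 0.33 in WT (adjusted p = 0.653), a value that turned to 0.20 with scaling by library totals. The difference between these diet effects was -1.23 ± 0.46, with an unadjusted p of 0.0243 and an adjusted p of 0.424. The call in Elf4-/- was kept in 3 of 8 fits without 1 library. It was lost without either WT EtOH library, without either Elf4-/- Control library and without Elf4-/- EtOH replicate 1, where the change was -1.10 (adjusted p = 0.130). The call averaged over genotypes (-0.84, adjusted p = 0.0242) was also kept in 3 of 8, and was lost without either WT EtOH library, either Elf4-/- Control library or WT Control replicate 2. Hcn3, a channel gene on the opposite strand, shares 711 exon bases with Pklr, 22.0% of the annotated Pklr exon, and its counts were 0.933 to 1.19 times those of Pklr in the 8 libraries. Whether the counting used strand was not given in the sources used here, so reads of Pklr and Hcn3 cannot be told apart where they overlap.

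Pfkl, the liver subunit of phosphofructokinase, which commits sugar to glycolysis, was the lowest of the 8 genes in CPM and per length. It stood at 19.2 and 19.3 CPM in Control and 18.6 and 23.6 CPM in EtOH libraries of WT, and 21.9 and 21.6 CPM in Control and 14.3 and 17.2 CPM in EtOH libraries of Elf4-/-. Both Elf4-/- EtOH libraries lay below all others. The diet difference was -0.46 ± 0.21 in Elf4-/- (adjusted p = 0.245) and 0.13 ± 0.21 in WT (adjusted p = 0.681), neither past the threshold.

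**Figure D2:**
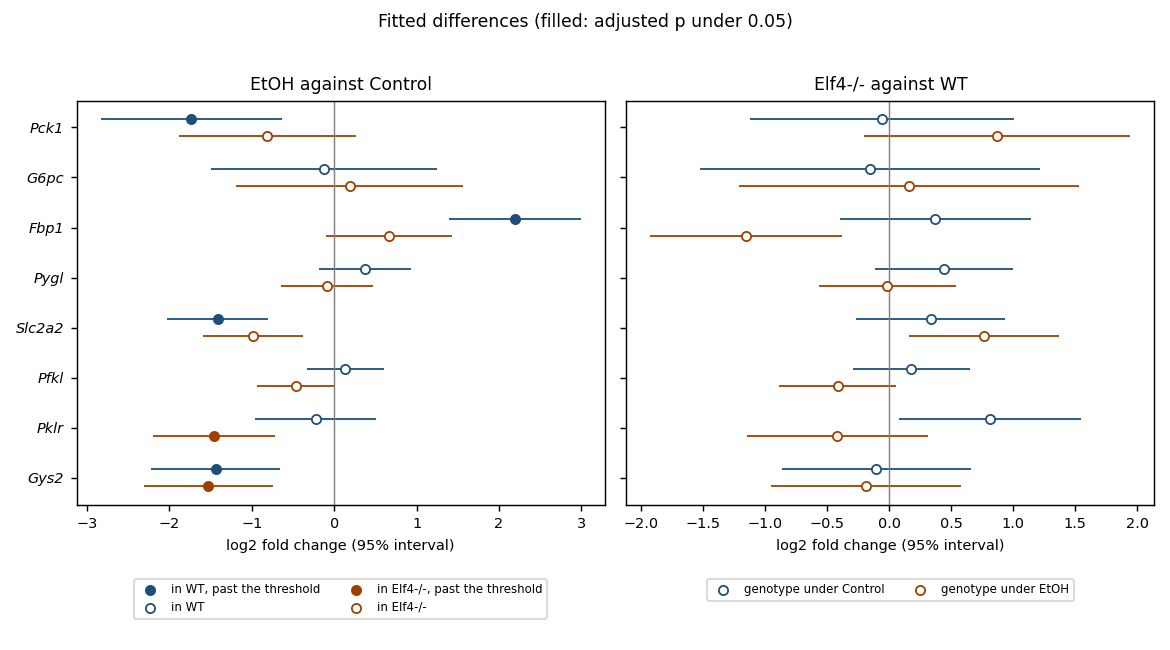
Fitted log2 fold changes with 95% intervals from edgeR for the 8 genes. The left panel gives EtOH against Control in each genotype and the right panel Elf4-/- against WT under each diet, and filled points have an adjusted p under 0.05. Filled points stand only in the left panel, for Pck1, Fbp1, Slc2a2 and Gys2 in WT and for Pklr and Gys2 in Elf4-/-.

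Genotype comparisons gave no call among the 8 genes. Under Control diet edgeR called 0 of 8, against 0.0143% of all genes, and 1 of 8 had an unadjusted p under 0.05, against 7.31% of all genes. That gene was Pklr, at 0.81 ± 0.33 in Elf4-/- against WT (adjusted p = 0.649). Under EtOH edgeR called 0 of 8, against 0.143% of all genes, and 2 of 8 had an unadjusted p under 0.05, against 10.5%. These were Fbp1, at -1.15 ± 0.35 (adjusted p = 0.275), and Slc2a2, at 0.76 ± 0.27 (adjusted p = 0.369). The libraries of the 2 genotypes did not overlap in any of these 3 cases. The 3 were picked by their unadjusted p, so this adds nothing to it, and the share among all genes was not computed. DESeq2 called 0 of 8 under Control and 1 of 8 under EtOH, Fbp1 (adjusted p = 0.0397), against 0.709% and 1.47% of the genes to which it gave an adjusted p. The diet effect differed between genotypes for 0 of 8 genes with either tool, against 0.0% of all genes with edgeR and 1.08% with DESeq2, and the unadjusted p was under 0.05 for 2 of 8, Fbp1 and Pklr, against 10.1% of all genes.

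Glucose output was set against glucose use by the log2 ratio of CPM of opposing genes within a library, with no test. The genes of a pair differ in length, so that only differences of a ratio between libraries are read. Fbp1 over Pfkl was 1.63 and 2.61 in Control and 4.49 and 4.05 in EtOH libraries of WT, and 2.62 and 2.13 in Control and 3.30 and 3.68 in EtOH libraries of Elf4-/-. Every EtOH library lay above every Control library, and the mean log2 ratio was 2.15 higher under EtOH in WT and 1.11 higher in Elf4-/-. Fbp1 alone also separated the diets, so this lack of overlap is not a further result. No share over other gene pairs was computed. Pygl over Gys2, breakdown against synthesis of glycogen, was -1.61 and -1.44 in Control and 0.34 and 0.24 in EtOH libraries of WT, and -0.78 and -1.22 in Control and 0.93 and 0.20 in EtOH libraries of Elf4-/-. Here too the diets did not overlap, with a mean difference of 1.81 in WT and 1.56 in Elf4-/-. Gys2 alone also separated the diets and Pygl was not called, so this ratio mostly restates the fall of Gys2. Per kilobase the mean of Pygl stayed below that of Gys2 in all 4 groups, at 32.5 against 69.2 CPM per kilobase in WT EtOH. Under EtOH that order depends on the annotated exon lengths, 6895 bases for Pygl and 2657 for Gys2. In CPM the mean of Pygl was above that of Gys2 under EtOH, at 224 against 184 in WT and 221 against 161 in Elf4-/-. Under Control it was below Gys2 in CPM too.

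The pair at pyruvate did not follow the same order. Pck1 over Pklr was 5.02 and 4.55 in Control and 3.78 and 2.48 in EtOH libraries of WT, and 3.31 and 4.35 in Control and 5.47 and 3.44 in EtOH libraries of Elf4-/-. The mean was 1.66 lower under EtOH in WT and 0.63 higher in Elf4-/-, where the groups overlapped.

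**Figure D3:**
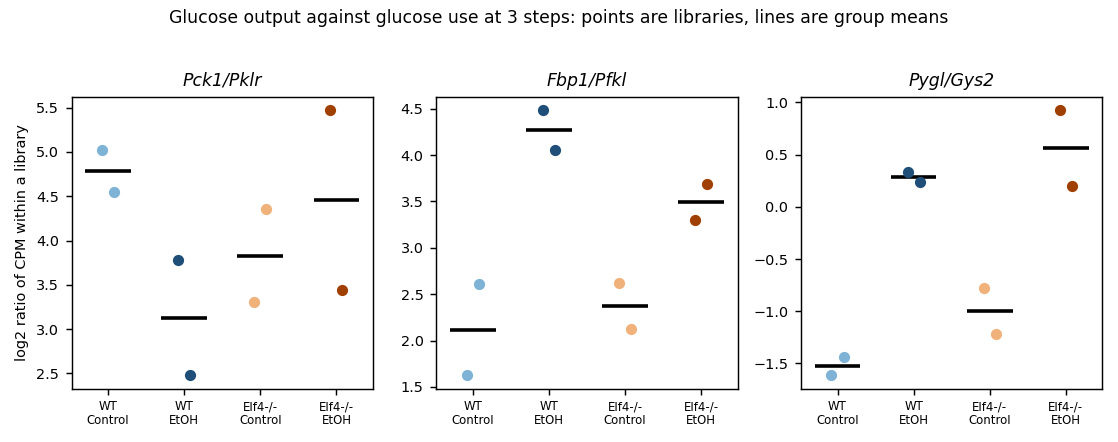
Log2 ratio of CPM within a library for 3 opposing pairs, output gene over gene of use or storage. Points are libraries, and lines are means of 2 libraries. For Fbp1/Pfkl and Pygl/Gys2 all 4 EtOH libraries lie above the 4 Control libraries, and for Pck1/Pklr they overlap.

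Levels were compared between genes per kilobase of annotated exon. By group means, Pck1 was the highest of the 8 in all 4 groups, at 1317 ± 215 CPM per kilobase (SD, n = 2) under Control and 395 ± 205 under EtOH in WT, and Pfkl was the lowest in all 4, at 2.89 ± 0.01 in WT Control. In WT Control the order after Pck1 was Gys2 at 188 ± 7.58, G6pc at 111 ± 113, Slc2a2 at 62.4 ± 7.96, Fbp1 at 52.7 ± 24.8, Pklr at 52.1 ± 20.2 and Pygl at 25.1 ± 1.13. Neighbours from Gys2 to Pklr in that order lay closer than the larger of their 2 SDs. In WT EtOH Fbp1 moved to the place after Pck1, at 241 ± 10.8 CPM per kilobase. Slc2a2 was next to last in that order, at 23.4 ± 0.85, with Pfkl last at 3.16.

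The liver genes stood above the isozymes of other tissues. In all 8 libraries Pck1 per kilobase was above Pck2, its mitochondrial counterpart, with a median ratio of 913, and Gys2 was above the muscle form Gys1, with a median ratio of 138. The other median ratios per kilobase were 16.0 for G6pc over the widely expressed G6pc3, 561 for Fbp1 over the muscle form Fbp2, which had 0 to 6 counts, 26.7 for Pklr over Pkm, 15.2 for Slc2a2 over Slc2a1, 52.6 for Pygl over the brain form Pygb and 70.3 for Pygl over the muscle form Pygm, each above in 8 of 8 libraries. Pfkl was the exception. Per kilobase it was above the muscle form Pfkm in 2 of 8 libraries, with a median ratio of 0.797 (range 0.657 to 1.17). It was above the platelet form Pfkp in all 8, with a median ratio of 3.75. The order of Pfkl and Pfkm depends on their annotated exon lengths, 6675 and 3340 bases. In counts not divided by length Pfkl was above Pfkm in every library, as at 103 against 68 in WT Control replicate 1. The lowest ratio of Pklr to Pkm, 6.75, was in Elf4-/- EtOH replicate 1.

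**Figure D4:**
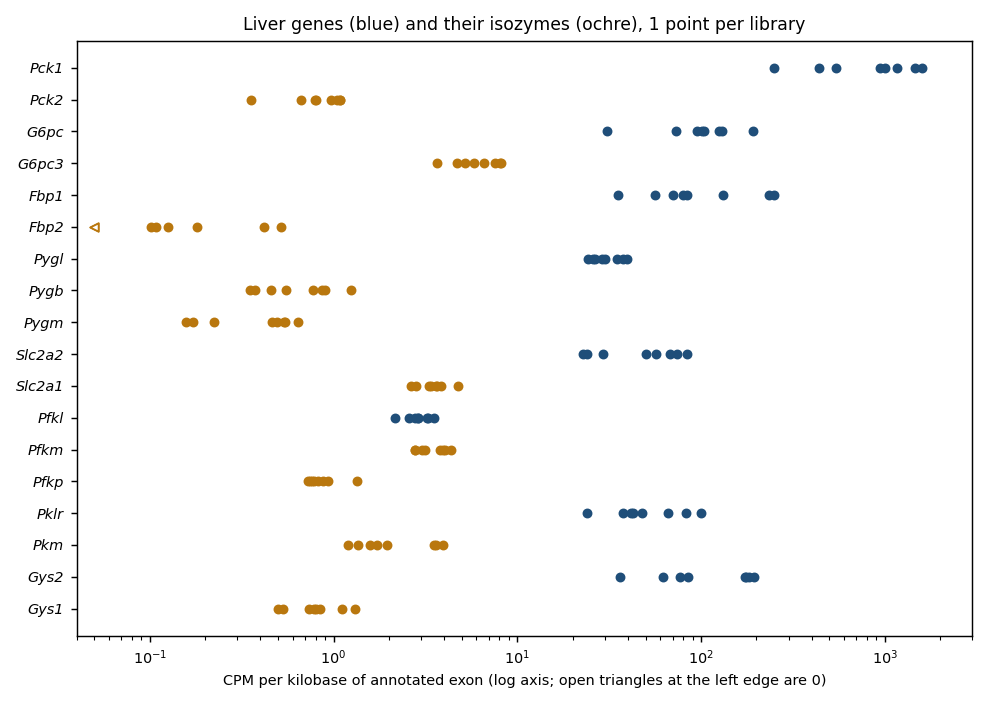
Level of each of the 8 liver genes and of its isozymes in the 8 libraries, in CPM per kilobase of annotated exon on a log axis. Blue points are the 8 genes, ochre points the isozymes, and open triangles libraries with 0 counts. Blue points lie to the right of the matching ochre points except for Pfkl, which overlaps Pfkm.

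The rest of the pathway was read from 6 lists of 118 genes, of which 113 were tested. EtOH changed 34 of them in WT (17 higher, 17 lower), 5 in Elf4-/- (4 higher, 1 lower) and 44 averaged over genotypes (21 higher, 23 lower). These counts, and those of each list below, are to be read against the 21.6%, 2.89% and 28.0% of all genes. With scaling by library totals alone the WT count was 33 higher and 9 lower, and 29 higher and 12 lower averaged over genotypes. This scaling moved the median of all genes by 0.43 in WT and 0.20 averaged over genotypes, and over all genes the share of WT calls that were higher moved from 50.2% to 84.4%. The 59 calls of single genes that the naming rule picks from these lists kept their direction under the 14 settings that gave all 59 values, as did the 31 of them that could be fitted with only the 4 libraries compared. Of the 59, 22 were called in all 8 fits without 1 library, and 3 moved by over 1.5 times in such a fit, Pdk4 and Gbe1 in Elf4-/- and Txnip averaged over genotypes, each without Elf4-/- EtOH replicate 1. Leaving out 1 library took the WT count to 12 without WT EtOH replicate 1, 7 without WT EtOH replicate 2, 19 without WT Control replicate 1 and 22 without WT Control replicate 2, and the Elf4-/- count to between 0 and 18, the highest without Elf4-/- EtOH replicate 2. The count averaged over genotypes was between 23, without WT EtOH replicate 2, and 52, and was also more than 1.5 times lower without WT EtOH replicate 1 (27), Elf4-/- Control replicate 1 (28) and Elf4-/- Control replicate 2 (25).

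The reversible steps shared by both directions rose in part. All 7 were tested, 4 were higher and 0 lower in WT, 2 were higher and 0 lower in Elf4-/-, and the median log2 change averaged over genotypes was 1.20. Pgk1, phosphoglycerate kinase, went from 14.5 and 27.8 CPM in WT Control to 112 and 99.7 CPM in WT EtOH, and from 32.3 and 30.3 to 137 and 77.3 CPM in Elf4-/-. It rose by 2.32 ± 0.34 in WT (adjusted p = 0.0029) and 1.77 ± 0.33 in Elf4-/- (adjusted p = 0.0274). Tpi1, triose phosphate isomerase, rose by 1.43 in WT and 1.30 in Elf4-/- (adjusted p = 0.0055 and 0.0300). The Elf4-/- calls of Pgk1 and Tpi1 were lost with only the 4 libraries compared, where 0 pathway genes were called in Elf4-/-. Eno1, enolase, rose by 1.85 in WT (adjusted p = 0.0056), and Pgam1, phosphoglycerate mutase, by 1.34 (adjusted p = 0.0471). Gapdh was not called, with a log2 difference of -0.37 averaged over genotypes. Several of these genes have near-identical pseudogenes, and how the counting shared reads among copies was not given in the sources used here.

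Among 26 genes of glycolysis and pyruvate entry, 4 were higher and 3 lower in WT, 1 higher and 1 lower in Elf4-/-, and 6 higher and 4 lower averaged over genotypes. Pdk4, the kinase that switches off pyruvate dehydrogenase, had 8 and 2 counts in Control and 1066 and 1821 in EtOH libraries of WT, and 31 and 3 in Control and 1375 and 63 in EtOH libraries of Elf4-/-. It rose by 7.41 ± 1.497 in WT (adjusted p = 0.0091) and 5.84 ± 1.30 in Elf4-/- (adjusted p = 0.0456), and the Elf4-/- EtOH libraries lay far apart. Without Elf4-/- EtOH replicate 1 its change in Elf4-/- was 2.06 (adjusted p = 0.120), and over the 8 fits without 1 library it ran from 2.06 to 7.93 and was called in 1. The call in WT was lost without either WT Control library (highest adjusted p = 0.0720). Ldha, lactate dehydrogenase, went from 65.6 and 121 CPM to 468 and 374 CPM in WT and rose by 2.17 (adjusted p = 0.0031). Pkm, the pyruvate kinase of most other tissues, rose by 1.56 in WT (adjusted p = 0.0088). Pfkfb3, which makes an activator of phosphofructokinase, fell by 2.05 in Elf4-/- (adjusted p = 0.0273) and differed by -0.84 in WT (adjusted p = 0.147). Gckr, a regulatory protein of hepatic sugar use, fell by 1.07 in WT (adjusted p = 0.0118), and Pfkfb2, a relative of Pfkfb3, by 1.46 (adjusted p = 0.0182). Pdk2, another kinase of pyruvate dehydrogenase, fell by 1.09 in WT (adjusted p = 0.0185).

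Among 18 further genes of gluconeogenesis, 2 were higher and 3 lower in WT, 0 were called in Elf4-/- with edgeR and 0 with DESeq2 (3 had an unadjusted p under 0.05), and 3 were higher and 3 lower averaged over genotypes. Sds, serine dehydratase, which feeds serine carbon into pyruvate, went from 267 and 367 CPM in WT Control to 78.1 and 38.0 CPM in WT EtOH, a fall by 2.45 ± 0.53 (adjusted p = 0.0116). Gpt, alanine aminotransferase, fell by 1.21 in WT (adjusted p = 0.0102), and G6pc3 by 0.82 (adjusted p = 0.0469). Slc16a1, a carrier of lactate and pyruvate, rose by 1.58 (adjusted p = 0.0025), and Gk, glycerol kinase, by 0.80 (adjusted p = 0.0409). Mdh2, the mitochondrial malate dehydrogenase, passed when averaged over genotypes, at 1.07 (adjusted p = 0.0173). Pcx, pyruvate carboxylase, and Slc37a4, the carrier that brings glucose 6-phosphate to the phosphatase, were not called, at 0.06 and -0.39.

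Among 21 glycogen genes, 4 were higher and 4 lower in WT, 1 higher and 0 lower in Elf4-/-, and 5 higher and 5 lower averaged over genotypes. Gbe1, the branching enzyme, went from 15.7 and 19.0 CPM to 68.2 and 82.2 CPM in WT and from 22.1 and 26.4 to 82.4 and 40.7 CPM in Elf4-/-. It rose by 2.12 ± 0.32 (adjusted p = 0.0031) and by 1.34 ± 0.30 (adjusted p = 0.0489), the latter called in 1 of 8 fits without 1 library and at 0.75 without Elf4-/- EtOH replicate 1 (adjusted p = 0.141). Ugp2, which makes the glucose donor for glycogen synthase, rose by 1.09 in WT (adjusted p = 0.0380), and the phosphoglucomutase Pgm1 by 0.83 (adjusted p = 0.0196). Ppp1r3c, which brings protein phosphatase to glycogen, fell by 2.03 in WT (adjusted p = 0.0046), and the phosphorylase kinase subunits Phkg2 and Phka2 fell by 0.997 and 0.99 (adjusted p = 0.0081 and 0.0087). A further subunit, Phka1, passed when averaged over genotypes, at -0.68 (adjusted p = 0.0149).

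Among 34 genes of hormone response and its regulators, 3 were higher and 7 lower in WT, 0 were called in Elf4-/- with edgeR and 2 with DESeq2 (9 had an unadjusted p under 0.05), and 3 were higher and 9 lower averaged over genotypes. Srebf1, a driver of insulin-stimulated lipid genes, went from 263 and 326 CPM to 40.0 and 50.03 CPM in WT, a fall by 2.71 ± 0.57 (adjusted p = 0.0109). Klf15, a factor of amino acid use in gluconeogenesis, fell by 1.41 (adjusted p = 0.0086), and Trib3, an inhibitor of insulin signalling, by 1.66 (adjusted p = 0.0116). Txnip, which restrains glucose uptake, rose by 2.46 (adjusted p = 0.0192), and averaged over genotypes by 1.46, or 0.66 without Elf4-/- EtOH replicate 1. In WT the hormone Fgf21 rose by 2.06 (adjusted p = 0.0141) and the lipase inhibitor G0s2 by 1.02 (adjusted p = 0.0283). Of 7 other sugar carriers, 0 were called in either genotype by edgeR or DESeq2, with 1 in WT and 2 in Elf4-/- at an unadjusted p under 0.05, and 2 were lower averaged over genotypes, among them the urate and sugar carrier Slc2a9 at -0.54 (adjusted p = 0.0333). No pathway gene was called between genotypes or for the difference of diet effects with edgeR, and DESeq2 called 3 under Control, 7 under EtOH and 0 for the difference. These are 3.0%, 6.67% and 0.0% of the pathway genes to which DESeq2 gave an adjusted p, beside 0.709%, 1.47% and 1.08% of all such genes. At an unadjusted p under 0.05 in edgeR there were 11 under Control (9.73%), 20 under EtOH (17.7%) and 17 for the difference (15.0%), beside 7.31%, 10.5% and 10.1% of all genes.

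**Figure D5:**
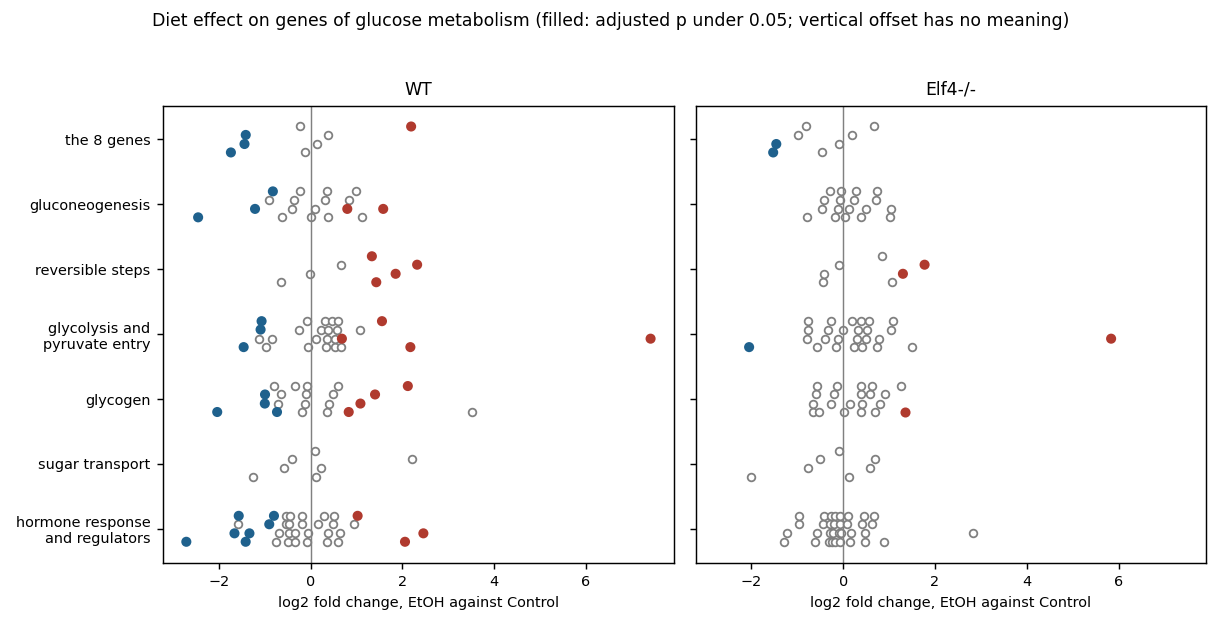
Log2 fold change of EtOH against Control for the 8 genes and for each of the 6 pathway lists, in WT (left) and Elf4-/- (right). Each point is 1 gene, filled red (higher) or blue (lower) where the adjusted p is under 0.05. The 34 filled points of the lists in WT lie on both sides of 0, the 5 in Elf4-/- are Pgk1, Tpi1, Pdk4, Gbe1 and Pfkfb3, and the point farthest right in both panels is Pdk4.

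Markers of other cells and of liver zones moved with the diet as well. In WT edgeR called 8 of 8 Kupffer cell markers, 8 of 8 endothelial and 6 of 8 stellate markers higher under EtOH. In Elf4-/- it called 1, 0 and 0 higher. Of all genes tested, 10.8% were called higher in WT and 1.71% in Elf4-/-. In Elf4-/- 8, 6 and 8 of these markers had a positive log2 change. There 4, 1 and 2 had an unadjusted p under 0.05, and DESeq2 called 1, 0 and 2. The summed CPM of the Kupffer markers was 199 to 260 in Control and 625 to 697 in EtOH libraries of WT, 186 to 192 in Control and 253 to 264 in EtOH libraries of Elf4-/-, and no marker of these 3 lists was at 0 in every library. Endothelial sums were 59.1 to 120, 341 to 410, 183 to 184 and 186 to 282 in the same order, and stellate sums were 53.9 to 137, 365 to 505, 182 to 217 and 298 to 442. All 7 hepatocyte markers read summed to 53039 to 72328, 31692 to 38050, 64568 to 71370 and 40704 to 52851 CPM in that order. Of the 7, Arg1 and Apoa1 were lower in WT under EtOH. In Elf4-/- edgeR called 0 and DESeq2 2, and 2 had an unadjusted p under 0.05. Of 9 periportal markers, 5 were lower in WT and 0 were called in Elf4-/- with edgeR, with Sds counted here as in the gluconeogenesis list. DESeq2 called 7 in WT and 1 in Elf4-/-, and as many had an unadjusted p under 0.05. Of 10 pericentral markers, 4 were higher and 1 lower in WT and 3 were higher in Elf4-/-, among them Glul in both. An unadjusted p under 0.05 was found for 5 in WT and 7 in Elf4-/-, and DESeq2 called 5 and 6. Clock genes summed to 1453 to 1773 CPM in the Control libraries and 577 to 886 CPM in the EtOH libraries, but did not all move 1 way. Of 14 tested, edgeR called 2 higher and 3 lower in WT, and 0 higher and 1 lower in Elf4-/-. An unadjusted p under 0.05 was found for 8 in WT and 13 in Elf4-/-, and DESeq2 called 5 and 6. The median log2 change was -0.40 in WT and -0.81 in Elf4-/-. Averaged over genotypes 2 were higher and 8 lower. Nr1d1 was lower in both genotypes. Between genotypes under EtOH, where Fbp1 and Slc2a2 had an unadjusted p under 0.05, all 8 Kupffer markers did too, with a median log2 difference of -1.40 in Elf4-/- against WT, and Clec4f and Cd5l were called lower. There 7 of 9 periportal (median 1.17), 3 of 7 hepatocyte (median 0.41) and 2 of 10 pericentral markers (median 0.22) had an unadjusted p under 0.05. The counts were 3 of 8 for endothelial (median -0.78) and 0 of 8 for stellate markers. In these lists edgeR called 0, and DESeq2 called 4 periportal, 1 hepatocyte and 2 pericentral markers. Under Control, where Pklr had one, 7 of 8 endothelial markers (median 1.05), 6 of 8 stellate markers (median 1.02) and 0 of 8 Kupffer markers did. In these lists edgeR called 0 and DESeq2 1, an endothelial marker. For the difference of diet effects, where Fbp1 and Pklr had one, 7 of 8 endothelial and 6 of 8 Kupffer markers did. So did 3 of 8 stellate, 4 of 9 periportal, 2 of 10 pericentral and 0 of 7 hepatocyte markers. With edgeR 0 were called, and with DESeq2 3 endothelial markers. The part of these markers in the values of the glucose genes was not tested.

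For each of the 8 genes, the gene with the most similar pattern was sought by Pearson r of log2 CPM among 9390 genes, as a description over 8 libraries that share groups. Gys2 was closest to Col5a3 (r = 0.994), Slc2a2 to Cmc4 (0.990), Pck1 to Jade2 (0.989), Fbp1 to Eef1a1 (0.983), Pfkl to Adcy6 (0.977), G6pc to Sap18 (0.953) and Pygl to Snx8 (0.928). Pklr was closest to Hcn3 (0.987), the gene that overlaps it. Among the 8 genes themselves Slc2a2 and Gys2 had an r of 0.85, Fbp1 had -0.84 with Pck1 and -0.82 with Slc2a2, and Pklr had 0.75 with both Gys2 and Pfkl.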

How the data were processed

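Total RNA of mouse liver was measured in 8 libraries. Per the study's methods and the submitters' processing notes, RNA was taken up in Trizol and read in pairs on an Illumina HiSeq, and the authors checked the reads with FastQC, aligned them to mm10 with HISAT2, sorted them with SAMtools, counted them with HTSeq and tested them with DESeq2. Versions, annotation and strand setting were not given in the sources used here. The deposited table holds raw counts, whole numbers for each gene symbol, with a column for each library. Its 968 blank lines were left out.

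All 8 libraries entered 1 model of 4 groups without a covariate in edgeR 4.0.16 (R 4.3.3), with TMM, filterByExpr (13993 genes, at least 99.8% of each library) and glmQLFTest, adjusted by Benjamini-Hochberg over all genes tested. Contrasts were diet in each genotype and averaged, genotype under each diet, and their interaction. SEs came from the log2 fold change over the root of F, and 95% intervals from the t distribution with the fitted degrees of freedom. Log2 CPM used a prior count of 2. The script was tested on simulated data. Pathway genes were named, in each list and contrast, as up to 3 largest rises and 3 largest falls among calls with a mean of at least 50 counts. Isozymes and the most similar gene were named by rule. Pgam1, Gapdh, Pcx, Slc37a4, Arg1, Apoa1, Glul and Nr1d1 were chosen after their values were seen. The 8 genes and the lists were chosen with earlier results of these data known. Gene positions and exon lengths are from GENCODE M21 (GRCm38), promoters from RefSeq (GRCm38.p6), which held none for Gys2. Some results for single genes are not reported here.

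Markers of fat, pancreas, intestine, muscle, bile duct, red cells and neutrophils were also read. Markers absent from the table were not analysed here. Of those tested, Alas2 and Hba-a2 of red cells were lower in WT under EtOH, and averaged over genotypes Sox9, Lipe, Alas2 and Hba-a2 were lower and S100a9 higher. Of 9 genes induced by fasting, Acot2 and Cyp4a14 were higher in both genotypes. Same-numbered libraries of different groups did not deviate together (r from -0.11 to 0.06 over genes), so the numbers were not taken as pairs. Alternatives were DESeq2 1.42.0, its size factors, library totals alone, no filter, a mean of at least 10 counts, the replicate number as a block, each library left out, and only the 4 libraries compared.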

Additional observations from a re-analysis of the deposited data

How the results depend on the processing

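With 2 libraries a group, the fit without 1 library assumes that the lone library varies like the others. Among the 8 genes, the diet count in Elf4-/- of 2 became 0 with library totals alone, 1 with the replicate number as a block and 0 with only the 4 libraries compared, and the genotype count under EtOH of 0 became 1 with DESeq2. Among pathway genes, the diet count in Elf4-/- of 5 became 8 with DESeq2, 2 with the block and 0 with only the 4 libraries compared, and the genotype counts of 0 became 3 under Control and 7 under EtOH with DESeq2. The cause was not tested. Over all genes, DESeq2 called 811 for diet in Elf4-/- in place of 404, 78 and 182 between genotypes in place of 2 and 20, and 107 for the difference of diet effects in place of 0. The block moved the Gys2 call in Elf4-/- to an adjusted p of 0.0552. It turned the log2 difference of G6pc for diet in WT to 0.0370, which did not pass (adjusted p = 0.9747). The numbers were not taken as pairs, since the check of shared deviations gave an r of -0.11 to 0.06. That check cannot show that no samples were paired, and the labels do not say.

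With library totals alone, differences that had not passed changed sign and did not pass there either: Pck1 (0.15), G6pc (0.0495) and Gys2 (0.13) between genotypes under Control, G6pc between genotypes under EtOH (-0.0726), G6pc (0.27) and Pklr (0.20) for diet in WT, Pfkl (0.0395) for diet averaged over genotypes, and G6pc (-0.12) and Slc2a2 (-0.0216) for the difference of diet effects.

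Leaving out 1 library took the count of the 8 genes to 1 to 4 for diet in WT, 0 to 3 in Elf4-/- and 3 to 5 averaged, and the pathway count to 7 to 46, 0 to 18 and 23 to 52. Pathway counts between genotypes ran from 0 to 3 under Control and 0 to 10 under EtOH, and from 0 to 4 for the difference of diet effects. The log2 ratio of Pck1 to Pklr changed with diet by -2.31 to -1.004 in WT and -0.39 to 1.64 in Elf4-/-, and between genotypes by -1.48 to -0.44 under Control and 0.31 to 2.34 under EtOH. For Fbp1 over Pfkl these ranges were 1.66 to 2.64, 0.87 to 1.36, -0.24 to 0.75 and -0.997 to -0.56, and for Pygl over Gys2 1.73 to 1.90, 1.20 to 1.93, 0.31 to 0.75 and -0.0888 to 0.64. Single genes that had not passed changed sign in some fits. For diet in WT the ranges were -0.91 to 1.72 for G6pc, -0.58 to 0.23 for Pklr and -0.0589 to 0.29 for Pfkl. For diet in Elf4-/- Pygl ran from -0.38 to 0.16, and averaged over genotypes G6pc ran from -0.36 to 0.95 and Pygl from -0.0101 to 0.26. Between genotypes under Control the ranges were -0.49 to 0.28 for Pck1, -0.93 to 1.70 for G6pc and -0.0395 to 0.96 for Fbp1, and under EtOH -0.20 to 0.62 for G6pc, -0.94 to 0.31 for Gys2 and -0.30 to 0.22 for Pygl. For the difference of diet effects they were -1.53 to 1.10 for G6pc, -0.0177 to 0.76 for Slc2a2 and -0.84 to 0.40 for Gys2. Pfkl, the lowest of the 8 genes, had at least 14.3 CPM in every library.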
